A study of Mus musculus with 4 samples.

Results

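The nuclear genes of respiratory complexes II, III, IV and V, with cytochrome c, were taken by gene name from a table of heart messenger RNA: Sdha to Sdhd and the Sdhaf genes for complex II, the Uqcr genes and Cyc1 for complex III, Cycs for cytochrome c, the Cox genes whose name goes on with a digit for complex IV, and the Atp5 genes for complex V. The names chose 62 of the 46603 genes in the table, and 5 further names that end in -ps, the suffix of pseudogenes, were left out. By role, 4 genes were complex II subunits, 9 complex III subunits, 17 complex IV subunits and 15 complex V subunits, 1 was cytochrome c, and 16 were assembly factors or related genes. All 62 gene IDs were found in the GENCODE M21 annotation.

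These genes encode the part of oxidative phosphorylation that follows complex I. Complex II (succinate dehydrogenase) passes electrons from the citric acid cycle to ubiquinone, complex III passes them on to cytochrome c, complex IV (cytochrome c oxidase) hands them to oxygen, and complex V (ATP synthase) makes ATP from the proton gradient that complexes III and IV build with complex I. Beating heart muscle takes most of its ATP from this chain, and its mitochondria fill much of the cell. Complex II is coded wholly in the nucleus, whereas the catalytic core of complex IV, cytochrome b of complex III and part of the membrane sector of complex V come from the mitochondrial genome.

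The table held 4 libraries of ventricle RNA from C57Bl6/J mice of 8 to 12 weeks: P2Y6 KO mice, a null for the nucleotide receptor gene P2ry6, given isoproterenol at 50 mg/kg/day; P2Y6 KO mice given saline; WT mice given isoproterenol at 50 mg/kg/day; and WT mice given saline. All were injected into the peritoneum each day for 7 days, so that the saline mice carry the same handling. Isoproterenol is a beta-adrenergic agonist that drives the heart and leads to cardiac hypertrophy and fibrosis. Each group had 1 library. The labels do not say how many hearts it holds, and no difference between groups has a replicate check. Levels are CPM (counts per 1000000 counts in a library) and are listed in the order KO isoproterenol, KO saline, WT isoproterenol, WT saline.

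The libraries held 18771198 to 25637369 reads. P2ry6 had 10 and 13 reads in KO hearts, against 122 and 131 in WT hearts. The cardiomyocyte markers Myh6, Myl2, Myl3, Tnnt2, Tnni3, Actc1, Ryr2 and Mb summed to 59229 to 75040 CPM in every library. The atrial markers Myl7, Myl4, Sln and Bmp10 summed to 188 CPM in KO isoproterenol, 113 in KO saline, 141 in WT isoproterenol and 183 in WT saline. Ratios of 2 libraries are ratios of reads after TMM scaling, with a 95% interval for counting error in parentheses, and a gene was called when the whole interval lay beyond 1.5-fold. With a floor of 10 reads on average, 14301 genes were tested, among them 59 of the 62. Cox8c had 0 reads in every library, which allows up to 0.117 to 0.16 CPM, Cox7b2 had 1 to 6 reads and Cox20 had 2 to 6.

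The 62 genes took 2.71% of reads in the KO isoproterenol library, 3.04% in KO saline, 3.21% in WT isoproterenol and 3.17% in WT saline. Their reads were uneven between complexes: complex V subunits summed to 14650, 15986, 17373 and 16853 CPM, complex IV subunits to 4663, 5624, 5504 and 5783 CPM, complex III subunits to 4558, 4892, 5254 and 5041 CPM, and complex II subunits to 2389, 3046, 2950.2 and 3110 CPM. The KO isoproterenol library had the lowest sum in all 4 complexes. The 15 tested assembly factors and related genes were far lower, at 533, 509, 539 and 533 CPM together. In these deposited CPM the KO isoproterenol library was within the range of the others. After TMM scaling, 11 of the 15 had a ratio below 1 for isoproterenol over saline in KO hearts (median log2 ratio -0.23). For KO over WT under isoproterenol it was 14 of the 15 (median -0.27). Per kilobase of transcript, the highest level in WT saline hearts was that of Atp5b, at 2707 CPM per kilobase, followed by Atp5a1 at 1886 and Atp5g3 at 1451.

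**Figure D1:**
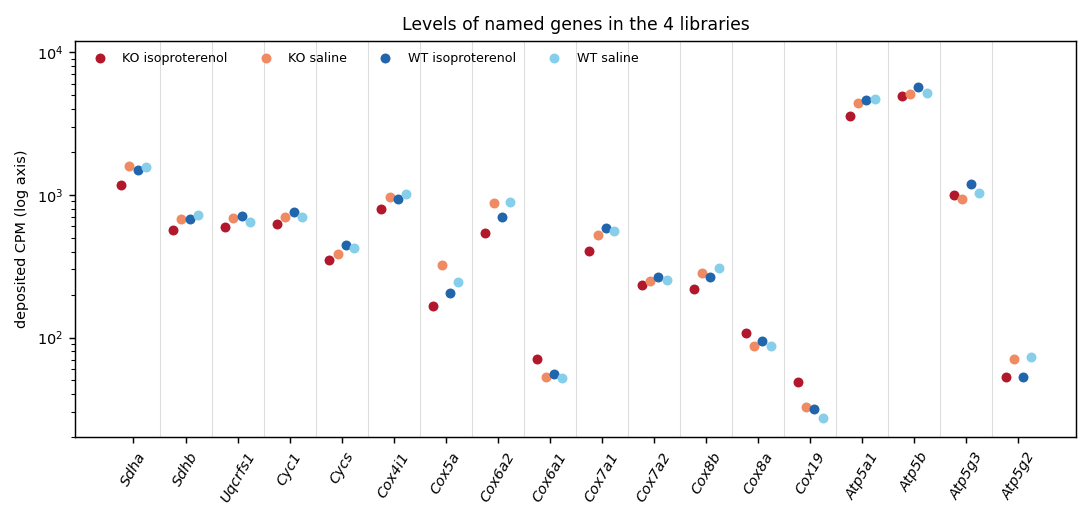
Deposited CPM, on a log axis, of named genes in the 4 libraries, 1 point per library, coloured from KO isoproterenol on the left to WT saline on the right. Cox5a and Cox6a2 were lowest in the KO isoproterenol library, at 166 and 537 CPM, whereas Cox6a1 and Cox19 were highest there, at 70.4 and 48.8 CPM.

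In KO hearts, the genes of complexes II to V were mostly lower with isoproterenol than with saline. Of the 59 tested, 52 had a ratio below 1 and 47 had an interval wholly below 1, against 4 wholly above. Among all 14301 tested genes, 7157 ratios were below 1, with 3948 intervals wholly below and 3888 wholly above. The median log2 ratio of the 59 was -0.29, while the median of all 14301 tested genes was 0.00. The differences were small: 3 genes were called lower and 0 higher at 1.5-fold, where 4.22% of all tested genes were called lower and 7.09% higher. At a lower threshold, a ratio of 5 to 4, 20 of the 59 were lower, against 9.47% of all tested genes. The 45 tested genes whose names start with Nduf, taken for nuclear complex I, had a median of -0.38, with 1 called lower. They include Ndufa4, which is also in the list of factors for complexes III to V below.

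Scaling sets the size of this shift. With reads per library total in place of TMM scaling, the median of the 59 was -0.11 and the median of all genes moved up by 0.18, so the distance between them was kept while the folds shrank. Then 41 of the 59 ratios were below 1, with 33 intervals wholly below and 12 wholly above, and Sdha was not called. Genes whose log2 ratio in KO hearts lay within 0.18 below 0 are above 0 in that scaling, and in WT hearts those within 0.08 above 0 are below it. The medians of complexes II, III, IV and V were below 0 under all 4 scalings run. In ventricle RNA, fewer cells of a type and less RNA per cell cannot be told apart, and other markers moved in the same library: 5 of 8 cardiomyocyte markers were called lower in KO hearts with isoproterenol (median log2 ratio -0.63), 5 of 8 fibroblast markers higher (median 1.24; summed 8714 CPM with isoproterenol, 1276 CPM with saline) and 5 of 8 macrophage markers higher (median 1.14; summed 943 CPM with isoproterenol, 418 CPM with saline). The endothelial markers had a median of -0.16, or 0.02 under library-total scaling, with 0 of 8 called. Of the atrial markers, 2 of 4 were called higher (median 0.54). The part of these cell types in the results on the respiratory genes was not tested.

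The response of WT hearts was smaller, and its direction rested on the scaling. The median log2 ratio of the 59 genes was 0.09, with 38 ratios above 1 and 21 below, and 0 genes were called in either direction, where 0.86% of all tested genes were called higher and 0.797% lower. By interval 30 were wholly above 1 and 11 wholly below, but under library-total scaling 20 were above and 21 below, with 27 ratios below 1 and a median of 0.01. Among all tested genes, 2189 intervals were wholly above 1 and 2305 wholly below after TMM scaling. Cardiomyocyte markers had 0 of 8 called in WT hearts (median -0.09) and macrophage markers 0 of 8 (median -0.05), whereas 4 of 8 fibroblast markers were called higher (summed 2927 CPM with isoproterenol, 1608 CPM with saline). Of the adipocyte markers Adipoq, Plin1, Cidec, Lep, Ucp1 and Cidea, 3 of the 5 tested were called higher in WT hearts (median log2 ratio 1.255), with a sum of 73.7 CPM with isoproterenol and 28.6 CPM with saline. Most of that sum was Cidea, and Ucp1, the uncoupling protein of brown fat, had 98 reads with isoproterenol and 10 with saline in WT hearts. In KO hearts 1 of the 5 was called higher, with a sum of 67.6 CPM with isoproterenol and 27.3 CPM with saline. The part of fat cells in the values of WT hearts was not tested.

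**Figure D2:**
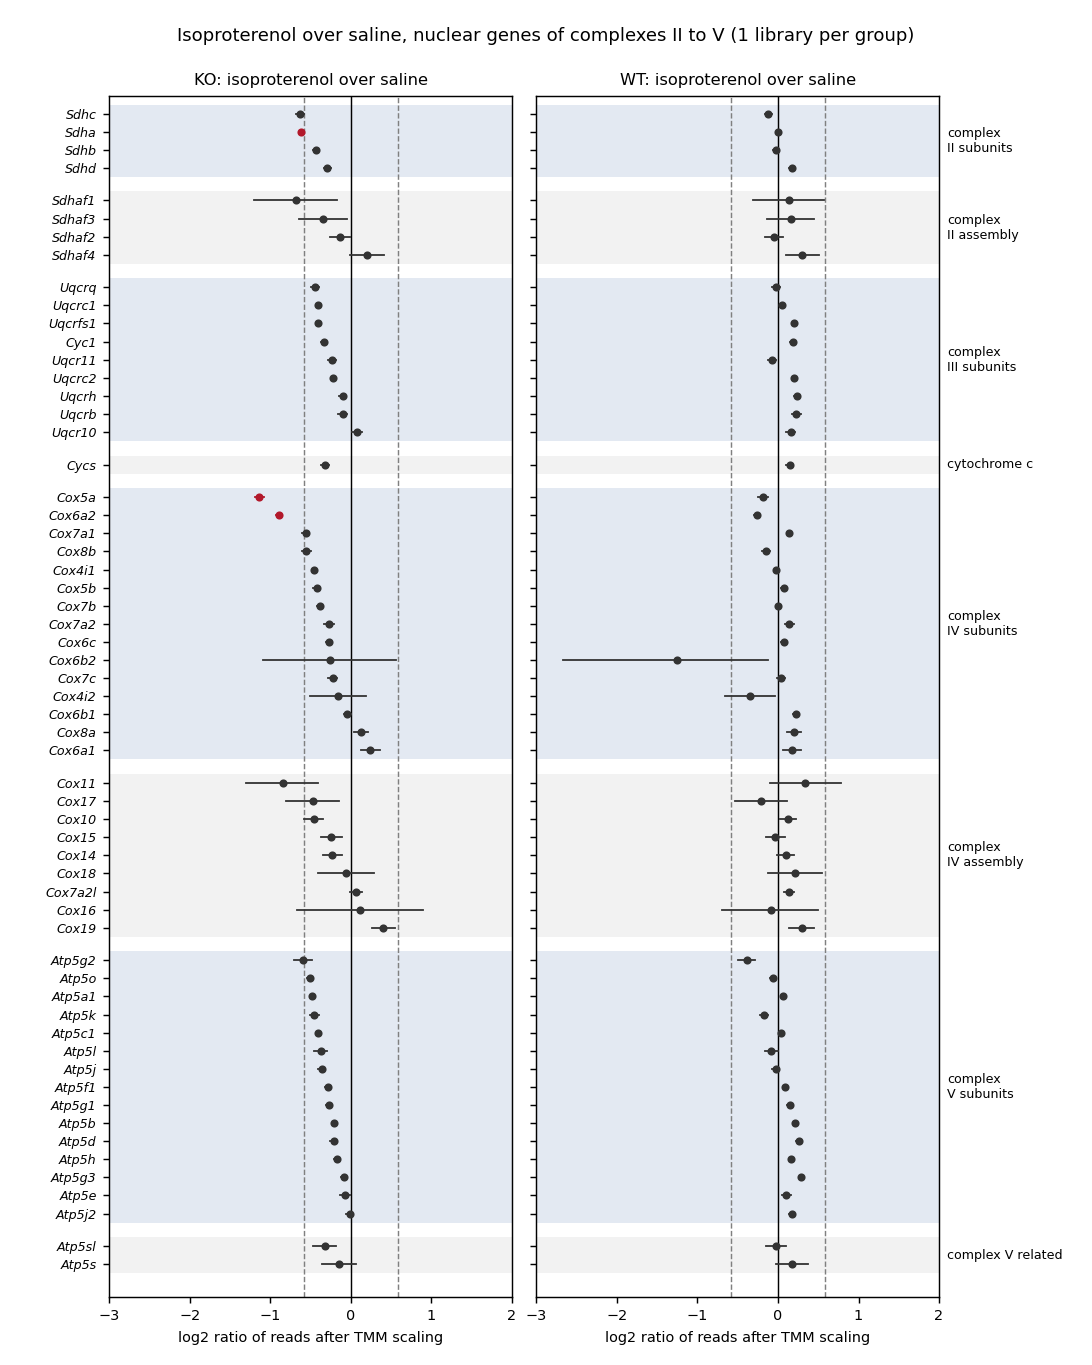
Log2 ratio of reads, isoproterenol over saline, for the 59 tested genes grouped by role, in KO hearts on the left and WT hearts on the right; points are ratios after TMM scaling, lines 95% counting intervals, dashed lines 1.5-fold and red marks called genes. In KO hearts 52 of 59 points lie left of 0, with Cox5a at -1.14 farthest, whereas 38 of 59 lie right of 0 in WT hearts.

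Complex II was the complex with the lowest median in KO hearts. Sdha, the flavoprotein that oxidises succinate, had 1163 CPM in KO isoproterenol and 1580.3 in KO saline, with 1481 in WT isoproterenol and 1568 in WT saline. The KO isoproterenol library stood below the other 3, which were close to each other. Sdha was called 1.54-fold lower (1.52 to 1.57) in KO hearts with isoproterenol, and its log2 ratio in WT hearts was 0.00 (-0.02 to 0.02). Sdhb, which holds the iron-sulfur clusters, had 565 CPM in KO isoproterenol, 674 in KO saline, 671 in WT isoproterenol and 722 in WT saline, a ratio 1.35-fold lower (1.32 to 1.39) in KO hearts. The membrane anchors Sdhc and Sdhd were 1.55-fold (1.49 to 1.60) and 1.23-fold (1.19 to 1.27) lower in KO hearts. The median of the 4 subunits was -0.53 in KO hearts and -0.01 in WT hearts, and their summed reads were 1.45-fold lower (1.43 to 1.46) in KO hearts.

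The assembly factors of complex II had few reads. Sdhaf2, which helps attach the flavin to Sdha, was 1.10-fold lower (1.01 to 1.19) in KO hearts, and Sdhaf4 was 1.15-fold higher with an interval that held no change (0.99 to 1.33). In deposited CPM Sdhaf2 was higher in KO isoproterenol than in KO saline, at 53.9 and 52.2. Sdhaf1, with 52 to 99 reads per library, was 1.60-fold lower (1.13 to 2.30) and remains uncertain, since 69.0% of its 50-base stretches also occur in transcripts of other genes. The 4 factors had 0 calls.

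Complex III had a median of -0.24 in KO hearts and 0.19 in WT hearts, with 0 of 9 subunits called in each. Uqcrfs1, the Rieske iron-sulfur protein, had 594 CPM in KO isoproterenol, 693 in KO saline, 707 in WT isoproterenol and 648 in WT saline. Its level with isoproterenol was thus lower than with saline in KO hearts, 1.32-fold (1.29 to 1.35), and higher in WT hearts, 1.15-fold (1.13 to 1.18). Cyc1, the cytochrome c1 subunit, had 625 CPM in KO isoproterenol, 696 in KO saline, 755 in WT isoproterenol and 701 in WT saline, which is 1.26-fold lower (1.23 to 1.29) in KO hearts and 1.14-fold higher (1.11 to 1.16) in WT hearts. The core proteins Uqcrc1 and Uqcrc2 were 1.33-fold (1.30 to 1.36) and 1.16-fold (1.14 to 1.19) lower in KO hearts. Uqcrh, the hinge protein, was 1.18-fold higher (1.15 to 1.21) in WT hearts. After TMM scaling, Uqcr10 alone in complex III had an interval above 1 in KO hearts, 1.05-fold higher (1.01 to 1.10). In deposited CPM, Uqcrb and Uqcrh were also higher in KO isoproterenol than in KO saline, at 266 and 251 for Uqcrb and 497 and 470 for Uqcrh.

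Cycs, the mobile electron carrier itself, had 351 CPM in KO isoproterenol, 386 in KO saline, 442 in WT isoproterenol and 422 in WT saline. It was 1.249-fold lower (1.21 to 1.29) in KO hearts and 1.11-fold higher (1.08 to 1.14) in WT hearts. It is reported as uncertain, since 26.2% of its 50-base stretches occur in transcripts of other genes. The same limit holds for Atp5o (41.6%), Uqcrb (25.5%), Cox7c (22.1%), Atp5h (19.9%) and Uqcrc2 (17.65%). Some further members share smaller parts.

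Complex IV had the widest spread in KO hearts, an SD of 0.35 over its 15 tested subunits on the log2 scale, against 0.16 in complex II, 0.18 in complex III and 0.17 in complex V. Cox5a, a nuclear subunit of the early assembly module, had 166 CPM in KO isoproterenol, 321 in KO saline, 205 in WT isoproterenol and 247 in WT saline. The KO isoproterenol library was the lowest and the KO saline library the highest. Cox5a was 2.20-fold lower (2.11 to 2.29) in KO hearts, the farthest of the 59, and 1.14-fold lower (1.09 to 1.18) in WT hearts. Part of the KO ratio lies in its saline library, where Cox5a was 1.35-fold higher (1.30 to 1.39) than in WT saline.

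Cox4i1, the subunit that assembles beside Cox5a, had 801 CPM in KO isoproterenol, 969.9 in KO saline, 938 in WT isoproterenol and 1007 in WT saline, and was 1.37-fold lower (1.35 to 1.40) in KO hearts. Its level was lowest in KO isoproterenol, as for Cox5a, and highest in WT saline. The subunits Cox5b, Cox7b, Cox6c and Cox7c were 1.34-fold, 1.31-fold, 1.21-fold and 1.17-fold lower in KO hearts, and their ratios in WT hearts were at most 1.06-fold higher. Cox6b1 was 1.03-fold lower (1.003 to 1.058) in KO hearts and was 1.17-fold higher (1.14 to 1.20) in WT hearts. In deposited CPM Cox6b1 was higher in KO isoproterenol than in KO saline, at 550 and 499.

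Complex IV carries 3 subunits with a heart and skeletal muscle isoform and an isoform found in most tissues, and in each case the muscle form had the lower ratio in KO hearts. Cox6a2, the muscle form of subunit 6a, had 537 CPM in KO isoproterenol, 877 in KO saline, 698 in WT isoproterenol and 885 in WT saline. Both isoproterenol libraries were below both saline libraries, with the KO one lowest, and Cox6a2 was 1.85-fold lower (1.81 to 1.90) in KO hearts and 1.20-fold lower (1.17 to 1.22) in WT hearts. Its counterpart Cox6a1 had 70.4 CPM in KO isoproterenol, 52.5 in KO saline, 55.6 in WT isoproterenol and 52.1 in WT saline, which is 1.18-fold higher (1.09 to 1.28) in KO hearts and 1.13-fold higher (1.04 to 1.22) in WT hearts.

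Cox7a1, the muscle form of subunit 7a, had 401 CPM in KO isoproterenol, 521 in KO saline, 587 in WT isoproterenol and 562 in WT saline. It was 1.48-fold lower (1.43 to 1.52) in KO hearts and 1.10-fold higher (1.08 to 1.13) in WT hearts. Cox7a2, its ubiquitous counterpart, had 234 CPM in KO isoproterenol, 249 in KO saline, 264 in WT isoproterenol and 253 in WT saline, with ratios 1.21-fold lower (1.16 to 1.26) in KO hearts and 1.10-fold higher (1.06 to 1.14) in WT hearts. Cox8b, the muscle form of subunit 8 in mice, had 219 CPM in KO isoproterenol, 283 in KO saline, 264 in WT isoproterenol and 308 in WT saline, against 108, 87.0, 93.9 and 86.6 CPM of the ubiquitous Cox8a in the same order. Cox8b was 1.47-fold lower (1.41 to 1.53) in KO hearts and 1.10-fold lower (1.07 to 1.14) in WT hearts, while Cox8a was 1.09-fold higher (1.03 to 1.16) in KO hearts and 1.15-fold higher (1.08 to 1.22) in WT hearts.

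Shares of reads within an isoform pair do not depend on how libraries are scaled. Cox6a2 made up 88.4% of Cox6a reads (95% exact binomial interval 87.8% to 89.0%) in KO isoproterenol, 94.4% in KO saline, 92.6% in WT isoproterenol and 94.4% in WT saline. The ratio of Cox6a2 to Cox6a1 was thus 2.19-fold lower (2.02 to 2.38) with isoproterenol in KO hearts and 1.35-fold lower (1.246 to 1.467) in WT hearts. Cox8b made up 67.0% of Cox8 reads (65.8% to 68.1%) in KO isoproterenol, 76.5% in KO saline, 73.8% in WT isoproterenol and 78.1% in WT saline, a ratio to Cox8a that was 1.60-fold lower (1.49 to 1.72) in KO hearts and 1.27-fold lower (1.18 to 1.36) in WT hearts. Cox7a1 made up 63.1% of Cox7a reads (62.3% to 64.0%) in KO isoproterenol, 67.7% in KO saline, 68.9% in WT isoproterenol and 68.9% in WT saline; its ratio to Cox7a2 was 1.22-fold lower (1.16 to 1.28) in KO hearts and 1.0004 (0.96 to 1.04) in WT hearts. The muscle share was therefore lower in the KO isoproterenol library than in the other 3 for all 3 subunits. In smooth muscle, fibroblasts and macrophages the ubiquitous forms prevail, and the summed fibroblast and macrophage markers given above were highest in that library; their part in the isoform shares was not tested.

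**Figure D3:**
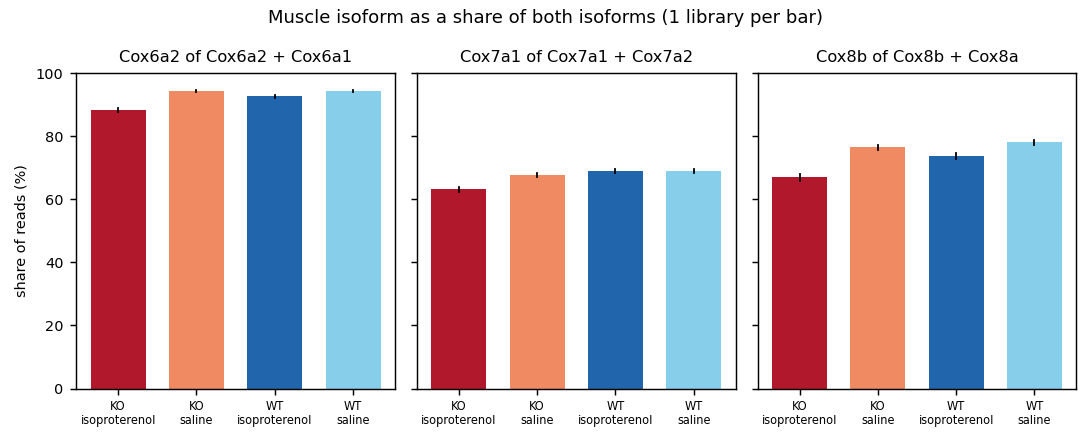
Reads of the muscle isoform as a percentage of the reads of both isoforms, for Cox6a, Cox7a and Cox8, 1 bar per library with exact 95% binomial intervals that cover counting error only. The KO isoproterenol bar is the lowest in each panel, at 88.4%, 63.1% and 67.0%.

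The 150 bases before the RefSeq transcript start (build GRCm38.p6) are shown for both isoforms of Cox7a and Cox8, and for Cox5a, to set the muscle forms beside the ubiquitous ones and beside the gene with the lowest ratio in KO hearts. CG dinucleotides are in capitals. The table of windows used here had none for Cox6a2, so the Cox6a pair is not compared. The windows are chr7:30184021-30184170 on the plus strand for Cox7a1, chr9:79759854-79760003 on the minus strand for Cox7a2, chr7:140900447-140900596 on the minus strand for Cox8b, chr19:7217617-7217766 on the minus strand for Cox8a and chr9:57521082-57521231 on the plus strand for Cox5a.
Cox7a1: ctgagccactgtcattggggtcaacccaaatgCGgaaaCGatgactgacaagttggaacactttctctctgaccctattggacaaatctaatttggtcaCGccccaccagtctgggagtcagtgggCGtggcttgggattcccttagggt
Cox7a2: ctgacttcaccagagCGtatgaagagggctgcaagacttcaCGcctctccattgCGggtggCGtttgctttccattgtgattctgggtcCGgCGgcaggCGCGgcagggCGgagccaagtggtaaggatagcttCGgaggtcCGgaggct
Cox8b: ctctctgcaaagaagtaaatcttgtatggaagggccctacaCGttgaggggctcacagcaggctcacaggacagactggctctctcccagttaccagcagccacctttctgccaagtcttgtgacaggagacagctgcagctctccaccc
Cox8a: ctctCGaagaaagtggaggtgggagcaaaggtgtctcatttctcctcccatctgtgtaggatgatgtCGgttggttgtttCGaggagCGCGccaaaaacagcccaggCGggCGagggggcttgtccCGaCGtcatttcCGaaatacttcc
Cox5a: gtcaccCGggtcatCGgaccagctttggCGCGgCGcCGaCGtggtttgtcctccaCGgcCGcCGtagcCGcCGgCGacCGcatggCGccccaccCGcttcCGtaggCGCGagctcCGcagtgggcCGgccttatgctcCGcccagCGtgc
These stretches hold 4 CG dinucleotides for Cox7a1, 1 for Cox8b, 11 for Cox7a2, 10 for Cox8a and 23 for Cox5a. The muscle forms of both pairs are thus poorer in CG than the ubiquitous forms, and Cox5a has the most of the 5. Cox6a2, Cox7a1 and Cox8b all lie on chromosome 7, Cox6a1 on chromosome 5, Cox7a2 on chromosome 9 and Cox8a on chromosome 19. Chromosome 7 is not particular to the muscle forms, since Cox6b1, Cox6b2, Uqcrc2, Sdhaf1 and Atp5sl lie there too.

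Over 250 bases before the start, RefSeq windows matched 47 of the 62 genes by symbol and gave 52 windows, with a median of 14.5 CG dinucleotides against 6 in all 32851 windows. On either strand, CCGGAAG, the core bound by ETS factors such as GABPA, was found in 28.8% of the member windows and 6.91% of all windows. GCATGCG, the core of the site of NRF1, was found in 13.5% of member windows and 3.02% of all, and AAGGTCA, the site of oestrogen-related receptors, in 3.85% of member windows and 4.08% of all. The first 2 patterns contain CG themselves, no pattern contains another, and a match is a description of these letters only.

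The other complex IV isoforms were rare. Cox4i2, a form of subunit 4 known from lung, made up 0.87% of Cox4i reads in KO isoproterenol, 0.71% in KO saline, 0.69% in WT isoproterenol and 0.87% in WT saline. Cox6b2, a testis form, had 24, 31, 8 and 26 reads; its ratio of KO to WT hearts under isoproterenol, 2.75-fold higher (1.24 to 7.36), rests on the 8 reads of the WT isoproterenol library. The 9 tested assembly genes of complex IV had a median of -0.23 in KO hearts and 0.13 in WT hearts, with 0 called in each.

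Cox19, a copper-binding assembly factor of the intermembrane space, had the highest ratio of the 59 in KO hearts. It had 48.8 CPM in KO isoproterenol, 32.5 in KO saline, 31.5 in WT isoproterenol and 27.1 in WT saline, so that the KO isoproterenol library stood above the other 3. Its ratio was 1.32-fold higher (1.20 to 1.46) in KO hearts and 1.23-fold higher (1.10 to 1.37) in WT hearts. Cox10, which makes haem for complex IV, was 1.38-fold lower (1.27 to 1.49) in KO hearts, and Cox7a2l, a factor that joins complexes III and IV, had a ratio of 1.04 (0.99 to 1.10). Cox11, Cox16 and Cox20 share 43.2%, 54.2% and 84.8% of their 50-base stretches with transcripts of other genes and are uncertain. Cox11, with 65 to 126 reads per library, was 1.79-fold lower (1.32 to 2.46) in KO hearts and 1.60-fold higher (1.21 to 2.12) in KO saline than in WT saline.

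After TMM scaling, all 15 complex V subunits had a ratio below 1 in KO hearts, 14 of them with the whole interval below 1, and 0 were called. This uniform direction rests on the scaling. In deposited CPM, Atp5e, Atp5g3, Atp5h and Atp5j2 were higher in KO isoproterenol than in KO saline. The median of the 15 subunits was -0.29 in KO hearts and 0.09 in WT hearts. Atp5a1, the alpha subunit of the catalytic head, had 3578 CPM in KO isoproterenol, 4414 in KO saline, 4593 in WT isoproterenol and 4661 in WT saline. After TMM scaling it was 1.40-fold lower (1.39 to 1.41) in KO hearts and 1.04-fold higher (1.03 to 1.05) in WT hearts. The WT direction rests on that scaling, since the deposited CPM was lower with isoproterenol. Atp5b, the beta subunit that holds the catalytic sites, had 4939 CPM in KO isoproterenol, 5052 in KO saline, 5664 in WT isoproterenol and 5187 in WT saline. It was 1.16-fold lower (1.15 to 1.17) in KO hearts and 1.15-fold higher (1.14 to 1.16) in WT hearts. The alpha and beta subunits stand in the enzyme in equal number, yet their ratios in KO hearts differed by more than their counting intervals.

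The ring of subunit c is coded by 3 genes whose mature proteins are the same. Atp5g1 had 661 CPM in KO isoproterenol, 706 in KO saline, 749 in WT isoproterenol and 717 in WT saline. Atp5g3 had 994 CPM in KO isoproterenol, 934 in KO saline, 1195 in WT isoproterenol and 1036 in WT saline, and Atp5g2 had 52.7 in KO isoproterenol, 70.3 in KO saline, 52.5 in WT isoproterenol and 72.6 in WT saline. Atp5g2 was lower in both isoproterenol libraries than in both saline libraries, 1.51-fold lower (1.40 to 1.64) in KO hearts and 1.31-fold lower (1.21 to 1.41) in WT hearts. Atp5g3 was 1.22-fold higher (1.20 to 1.24) in WT hearts, the highest of the 59 by its near bound, and 1.07-fold lower (1.04 to 1.09) in KO hearts. The KO direction of Atp5g3 rests on the TMM scaling, since its deposited CPM was higher with isoproterenol in KO hearts. As a share of the reads of the 3 genes, Atp5g3 had 58.2% in KO isoproterenol, 54.6% in KO saline, 59.9% in WT isoproterenol and 56.7% in WT saline, so that both isoproterenol libraries had the higher share. Of the 50-base stretches of Atp5g2, 38.4% occur in transcripts of other genes, so its level is uncertain. Atp5d, the delta subunit of the head, was 1.20-fold higher (1.17 to 1.23) in WT hearts and 1.16-fold lower (1.12 to 1.19) in KO hearts.

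Under saline, KO and WT hearts were close in these genes. The median log2 ratio of KO over WT was -0.02, 0 of 59 genes were called higher or lower, and 0.273% of all tested genes were called higher and 0.217% lower. At the lower threshold Cox5a alone was higher in KO, where 81 of all 14301 tested genes were higher and 105 lower. Cox19 was 1.24-fold higher (1.12 to 1.38) in KO saline, Atp5e, the epsilon subunit of complex V, was 1.21-fold lower (1.16 to 1.26), and Cox7c was 1.19-fold lower (1.15 to 1.23). Cox16, with 30 to 60 reads per library, was 1.72-fold lower (1.10 to 2.78). Among the marker lists, 2 of 4 atrial markers (median -0.65) and 1 of 5 adipocyte markers (median -1.125) were called lower in KO saline. Of the cardiomyocyte markers 0 of 8 were called. The part of these cells in the saline comparison was not tested.

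Under isoproterenol, KO hearts had lower levels than WT hearts across the complexes. Of 59 genes, 56 had a ratio below 1, with 49 intervals wholly below and 3 wholly above, and the median was -0.39, against 0.00 for all tested genes. Among all 14301 tested genes, 3172 intervals were wholly below 1 and 3267 wholly above. Cox7a1 was called, 1.70-fold lower (1.65 to 1.75), and 0 were called higher, where 1.8% of all tested genes were called lower and 4.2% higher. At the lower threshold 32 of the 59 were lower, against 5.88% of all tested genes. By the near bound of the interval, Atp5a1 followed, 1.49-fold lower (1.473 to 1.502), and Cox6a2, 1.51-fold lower (1.47 to 1.55). Cycs was 1.46-fold lower (1.41 to 1.51), and the medians were -0.49 for complex II, -0.38 for complex III, -0.39 for complex IV and -0.41 for complex V. Under library-total scaling Cox7a1 was no longer called, the median was -0.18 and the median of all genes moved up by 0.22. Beside these values, 4 of 8 cardiomyocyte markers were called lower (median -0.55) and 5 of 8 macrophage markers higher (median 0.97) in KO isoproterenol than in WT isoproterenol. Likewise 4 of 8 fibroblast markers were called higher (median 0.61) and 3 of 5 adipocyte markers lower (median -1.51). The part of these cells in the comparison was not tested.

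**Figure D4:**
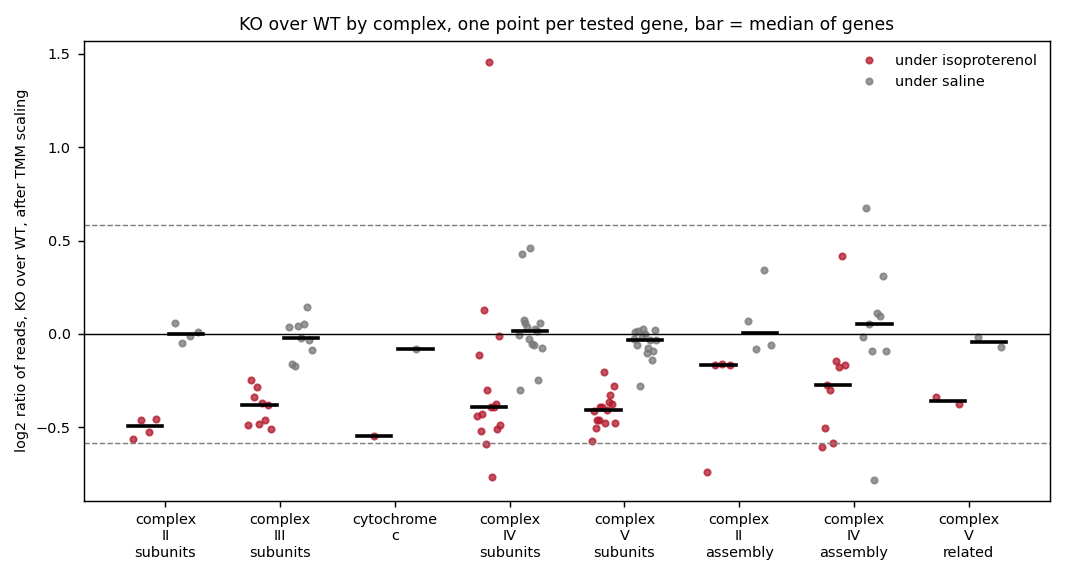
Log2 ratio of reads, KO over WT, after TMM scaling, 1 point per tested gene by role, in red under isoproterenol and in grey under saline; black bars are medians over genes and dashed lines 1.5-fold. The medians of the 4 complexes are between -0.49 and -0.38 under isoproterenol and lie near 0 under saline; the red point at 1.46 is Cox6b2, which had 8 reads in WT isoproterenol.

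The difference of the responses, KO minus WT, had a median of -0.37 on the log2 scale. It was below 0 for 54 of the 59 genes, against 7193 of all 14301 tested genes. It was called lower for 3 genes and higher for 0, where 1.73% of all tested genes were called lower and 3.83% higher, and at the lower threshold it was lower for 28, against 5.55%. Cox5a differed 1.93-fold (1.82 to 2.05), Cox7a1 1.63-fold (1.57 to 1.69) and Sdha 1.54-fold (1.51 to 1.57), each lower in KO. Under library-total scaling Cox5a alone was called, the median was -0.11, and the median of all genes moved up by 0.26. In 23 of the 59 genes the intervals of both responses were clear of no change and on opposite sides, and all 23 were lower with isoproterenol in KO hearts and higher in WT hearts. Of all 14301 tested genes 2.47% met that criterion, which genes with many reads, and so narrow intervals, meet more readily. Under library-total scaling 9 of the 59 met it, Sdhd, Uqcrc2, Uqcrfs1, Cyc1, Cycs, Cox7a1, Cox7a2, Atp5b and Atp5g1, against 0.531% of all tested genes. The 23 hold these 9 with Uqcrc1, Uqcrh, Uqcrb, Cox5b, Cox6b1, Cox6c, Cox10, Atp5a1, Atp5c1, Atp5d, Atp5e, Atp5f1, Atp5g3 and Atp5h.

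Genotype and treatment were also fitted as additive terms, with the difference of responses as the residual on 1 degree of freedom. A gene whose response differs between genotypes thus adds to the error of this fit. A lack of calls therefore does not show that such a gene was unchanged. With limma, 0 of the 59 genes had an adjusted p under 0.05 for treatment, where 0.00699% of all tested genes (1 gene) did; the lowest adjusted p of the 59 was 0.268. For genotype 0 of the 59 and 0% of all tested genes were called. At an unadjusted p under 0.05, 3 of the 59 genes passed for treatment, where 14.1% of all tested genes did, and 2 for genotype, where 2.88% did. The edgeR quasi-likelihood test and DESeq2 on the recovered reads also called 0 of the 59 for either term.

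Genes that work with these complexes are given from lists. The 6 mitochondrially coded subunits of complexes III to V were all lower with isoproterenol in KO hearts. Of these, 3 were called, where 4.22% of all tested genes were called lower, and neither mt-Co1 nor mt-Cytb was among the 3. Nearly all reads of the 6 subunits were of mt-Co1, at 87504, 100830.0, 115210.0 and 95581 CPM, and of mt-Cytb, at 40816, 45437, 51306 and 41439 CPM. mt-Co1, the catalytic subunit of complex IV, was 1.31-fold lower (1.30 to 1.31) in KO hearts and 1.27-fold higher (1.27 to 1.28) in WT hearts, and mt-Cytb was 1.26-fold lower (1.26 to 1.27) in KO hearts and 1.31-fold higher (1.30 to 1.31) in WT hearts. The KO isoproterenol library thus had the lowest level of each and the WT isoproterenol library the highest, as for Atp5b. The other 4 subunits, which hold the 3 calls, were listed at 3.25 to 82.4 CPM, far below mt-Co1. These are poly(A) libraries whose counting of reads with copies in the nuclear genome is not given. The ratios and calls of these 4 are therefore uncertain.

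Of 16 regulators of mitochondrial genes, 1 was called lower in KO hearts, where 4.22% of all tested genes were, and 0 in WT hearts, where 0.797% were. The medians were -0.46 in KO hearts and -0.06 in WT hearts. The called gene was Esrrb, an oestrogen-related receptor, 1.81-fold lower (1.60 to 2.04). Ppargc1a, the coactivator that drives mitochondrial biogenesis, had 106.9 CPM in KO isoproterenol, 106.7 in KO saline, 133 in WT isoproterenol and 105 in WT saline. The WT isoproterenol library stood above the other 3. After TMM scaling, Ppargc1a was 1.34-fold higher (1.27 to 1.42) in WT hearts and 1.13-fold lower (1.07 to 1.20) in KO hearts. Tfam, the packaging factor of mitochondrial DNA, was 1.13-fold lower (1.03 to 1.24) in KO hearts and 1.14-fold higher (1.05 to 1.247) in WT hearts. Tfam had 41.1 CPM in KO isoproterenol and 41.0 in KO saline. For both genes the lower ratio in KO hearts rests on the TMM scaling, since their deposited CPM there hardly differed.

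Of 24 tested factors for complexes III to V whose names fall outside the chosen patterns, 1 was called lower in KO hearts, which is close to the 4.22% of all tested genes. It was Lrpprc, which stabilises mitochondrial messenger RNA, 1.72-fold lower (1.65 to 1.80). Their median was -0.17, and 0.02 under library-total scaling. Of 10 markers of mitochondrial content, 1 was called lower, the chaperonin Hspd1, 1.81-fold (1.75 to 1.88), with a median of -0.43. Of the 3 carriers that supply complex V, 1 was called lower, the muscle adenine nucleotide carrier Slc25a4, with 3158 CPM in KO isoproterenol, 4593 in KO saline, 4491 in WT isoproterenol and 4718 in WT saline, 1.65-fold lower (1.63 to 1.67) in KO hearts. Its ubiquitous counterpart Slc25a5 had 340.0 CPM in KO isoproterenol, 232 in KO saline, 290.4 in WT isoproterenol and 240.5 in WT saline, so that the KO isoproterenol library was the highest for Slc25a5 and the lowest for Slc25a4.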

How the data were processed

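Per the labels' protocols, ventricle libraries came from a stranded kit that selects messenger RNA. The authors deposited CPM per gene, made with HTSeq and the build GRCm38.p4 (mm10) per the submitters' processing notes. Not given in the sources used here are the aligner, the annotation release and the settings of HTSeq. Where a column name gives a genotype and no treatment it was taken as saline, since the others name isoproterenol. Samples were grouped by genotype and treatment, and the depth of each is in the report.

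Each deposited CPM column gave back whole reads (100% of values within 0.01 reads). Reads were scaled by TMM (edgeR 4.0.16; factors 1.096, 0.966, 0.946 and 0.999 for KO isoproterenol, KO saline, WT isoproterenol and WT saline), 0.5 was added, and each ratio got an exact conditional (Clopper-Pearson) 95% interval. Intervals of the difference of responses and of the change in an isoform ratio are normal approximations on the log2 scale, from the summed inverse counts. The reads carry no molecular identifiers and are not independent molecules, and the intervals cover counting error only. Tested genes had 10 reads or more on average. The additive fit used limma 3.58.1 with a trend on log2(TMM-scaled CPM + 1), with Benjamini-Hochberg adjustment over all tested genes; edgeR and DESeq2 1.42.0 on recovered reads were alternatives. The treatment term of the limma fit was tested on simulated counts, in which the changes were alike in both genotypes. Per-kilobase levels used the shortest APPRIS principal transcript of GENCODE M21, and 50-base stretches were compared between its transcripts.

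Named genes were those called in any comparison, the isoforms of complex IV and of subunit c, the main redox and catalytic subunits, and in each comparison the 3 genes higher and 3 lower whose near interval bound was farthest from no change. A few further subunits and list genes were named for their role or call after their values were seen. The members and lists were chosen with earlier results of these data known.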

Additional observations from a re-analysis of the deposited data

Results flagged for a closer look

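Cox7a1 had opposite responses in the 2 genotypes: lower with isoproterenol in KO hearts and higher in WT hearts, with a KO minus WT difference of -0.705 on the log2 scale. With 1 library per group this difference was not tested against replicates; among the 23 genes with opposite directions it was the 1 whose whole counting interval lay beyond 1.5-fold, and it was no longer so placed with library-total scaling or with scaling by reads of nuclear genes.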

How the results depend on the processing

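The scaling moved the sizes of the ratios most. With library-total scaling the median log2 ratio of the 59 genes was -0.106 for isoproterenol over saline in KO hearts, 0.015 in WT hearts, -0.065 for KO over WT under saline, -0.18 under isoproterenol and -0.113 for the difference of responses; calls numbered 0 for KO over WT under isoproterenol and 1 for the difference. Scaling by reads of nuclear genes gave medians of -0.179 in KO hearts, -0.304 for KO over WT under isoproterenol and -0.265 for the difference, with 1 call in the difference. A threshold at a ratio of 5 to 4 gave 20 calls in KO hearts, 1 for KO over WT under saline, 32 under isoproterenol and 28 for the difference. A 2-fold threshold gave 1 call in KO hearts, 0 for KO over WT under isoproterenol and 0 for the difference. Of the values of named genes recomputed under other settings, 14 kept their direction and call, 7, of Sdha and Cox7a1, kept their direction below the threshold, and the 12 isoform shares moved by more than their interval when reads were taken per kilobase, with the KO isoproterenol library still lowest (86.5% for Cox6a2, 74.2% for Cox7a1 and 75.6% for Cox8b); genes closer to no change than a shift in scaling change side. The cause of these shifts was not tested beyond the scaling itself. In the additive fit, the number of all genes called for treatment was 1 with limma, 22 with edgeR and 174 with DESeq2, and for genotype 0, 3 and 13; unscaled values gave 368 and 14, no filter on low values 319 and 10, and a pseudocount of 0.1 gave 5 and 3, with 0 of the tested respiratory genes called in each. The ratios of isoforms within a library do not depend on scaling. No paired analysis was possible because each group has 1 library, and no replicate could be left out for the same reason. Depth limits Cox6b2, Cox11, Cox16 and Sdhaf1, which had at most 126 reads in a library.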
